A study of Homo sapiens with 51 samples.

Results

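A list of 10 genes of the human mitochondrial genome, chosen by symbol, was followed through 51 RNA libraries: ND1, ND2, ND3, ND4, ND5 and ND6 of complex I, CYTB of complex III, and COX1, COX2 and COX3 of complex IV. The count table has 25421 rows, and each of the 10 symbols was found in it exactly as listed. These 10 rows held 52838342 of 248448271 counts, or 21.3%. The table has 5 more mitochondrially encoded rows, which are given beside the 10 where they touch a result: ATP6, ATP8 and ND4L, which encode proteins, and RNR1 and RNR2, the 2 ribosomal RNAs.

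The libraries came from 5 established cell lines of human pancreatic ductal adenocarcinoma and fall into 17 groups of 3. KP4, PANC1 and PK45H each had an untreated group and 4 transduced groups, which received mCherry or OVOL2, each alone or together with M2rtTA. The other lines, HPAFII and PATU8988S, were sequenced untreated. OVOL2 is a zinc-finger transcription factor known for keeping cells epithelial, mCherry is a fluorescent control protein, and M2rtTA is a transactivator that drives tetracycline-inducible promoters in the presence of doxycycline. Each open reading frame was delivered by lentivirus at a multiplicity of infection of 2 with 8 µg/ml polybrene. Selection with 2.5 µg/ml of puromycin and induction with 0.6 µg/ml of doxycycline began the next day, and the cells were cultured for 6 days in total. All transduced groups, the mCherry controls included, therefore carried virus and both drugs. The labels do not say whether untreated cells received any of them, so virus, puromycin and doxycycline cannot be told apart in a comparison with untreated cells. Each line was a single cell line transduced in triplicate, and p-values measure the spread between these triplicates only.

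The mitochondrial genome is transcribed from both strands as long precursors, which are cut at the tRNAs that lie between most genes. The resulting mRNAs receive short poly(A) tails inside the organelle, and for several of them this tail completes the stop codon. The proteins they encode are core subunits of the respiratory chain, which are assembled with many nuclear-encoded subunits imported from the cytosol. ND6 stands apart: it is encoded on the other strand, and its mRNA is known to lack a poly(A) tail. The 3′ extension of the ND5 mRNA runs opposite to ND6.

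The annotated ends of these genes are shown because the libraries were made by PLATE-seq, which primes on poly(A) and reads near the 3′ end. An mRNA can run past the annotated end of its gene, as that of ND5 does, and ND6 lacks a tail. The bases shown are therefore not always those next to a tail. In GENCODE 29 on GRCh38, 9 of the 10 genes lie on the plus strand of the mitochondrial chromosome and 1, ND6, on the minus strand. Of the 10 genes 6 end in T or TA, so that their stop codon needs the tail, and 4 carry a complete stop. The last 30 bases of the genes on which the results turn are given 5′ to 3′ on the coding strand, with the final bases that stop translation in capitals.
ND4, chrM:12108-12137, plus strand: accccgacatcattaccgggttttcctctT
COX3, chrM:9961-9990, plus strand: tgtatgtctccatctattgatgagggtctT
COX2, chrM:8240-8269, plus strand: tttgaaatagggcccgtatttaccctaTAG
COX1, chrM:7416-7445, plus strand: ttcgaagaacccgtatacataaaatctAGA
ND5, chrM:14119-14148, plus strand: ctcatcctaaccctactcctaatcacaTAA
ND6, chrM:14149-14178, minus strand: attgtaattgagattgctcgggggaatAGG
ND4 and COX3 end in a bare T, whereas COX2, COX1, ND5 and ND6 have whole stop codons. ND5 ends at base 14148 and ND6 ends at base 14149 of the opposite strand, so the 2 genes abut tail to tail. Whether the counting used strand is not given in the sources used here, and without strand the reads of ND6 and of the ND5 extension cannot be told apart. ND4L and ND4 share an mRNA and overlap by 7 bases, and ATP8 and ATP6 share one and overlap by 46. GENCODE also names 343 nuclear pseudogenes of the 10 genes, none of which has a row in the table, so reads that match both could have been assigned to either.

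Library totals ranged from 1165399 to 7490556 counts, and 15653 to 18817 genes had a count. The least abundant of the 10 genes in any library still had 4807 counts, so counting error is small beside the spread between replicates. The lowest total belonged to HPAFII replicate 2, which also stood apart in ND3, with 12550 counts per 1000000 (CPM, scaled with TMM factors over all 51 libraries) against 27194 and 27728 in its mates, and in COX3, with 12003 against 29012 and 29871. Its ATP8 level was 17670 CPM against 8852.5 and 8520 in its mates. Its marker makeup differed too. The ductal marker sum was 5339 CPM against 12956 and 14466, and the leukocyte marker sum 249 against 92.0 and 82.6. The cause of these differences was not tested. Among the main tests this library enters only the comparisons of untreated lines, whose counts are given with and without it. It also enters the HPAFII share and the HPAFII mean in the correlations over groups. No 2 replicates agreed within sampling noise. The ductal epithelial markers KRT8, KRT18, KRT19, KRT7, EPCAM and CDH1 had counts in all 51 libraries. Of 5 acinar and endocrine markers, INS had a count in 1 library, CPA1 in 3, GCG in 10, PRSS1 in 22 and AMY2A in 29. Summed over the marker list, single libraries had 615 to 14466 CPM of ductal genes, 38.8 to 831 of leukocyte genes (CD74 alone 38.6 to 828), 8.54 to 66.3 of fibroblast genes, 3.39 to 15.7 of endothelial genes and 0 to 7.25 of acinar and endocrine genes. With OVOL2 and M2rtTA, CD74 rose by 0.61, COL1A1 by 1.72 and VWF by 1.85 and COL3A1 fell by 1.18 over the 3 lines, while the leukocyte marker CD3E was at 0 in 21 libraries. Their part in the results was not tested. OVOL2 itself had few counts in every transduced group, for example 4, 6 and 1 in PANC1 with OVOL2 against 4, 16 and 2 with mCherry. In KP4 with M2rtTA it had 13, 62 and 9 counts with OVOL2 against 2, 0 and 6 with mCherry. PK45H with M2rtTA had 23, 18 and 18 against 7, 3 and 12, without overlap. PANC1 with M2rtTA had 6, 20 and 9 against 7, 3 and 2, overlapping. A 3′ tag may lie outside a lentiviral open reading frame, so the OVOL2 row does not check the labels of every group.

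Per kilobase of annotated length, the mean level over all libraries was 65373 CPM for ND3, 39017 for ND2 and 34272 for COX2. COX1 and ND5 were the lowest of the 10, at 3581 and 2078 CPM per kilobase. Both carry whole stop codons, but so does COX2. A 3′-end method does not draw reads along the whole length, so the per-kilobase order describes these libraries and not molecules per cell.

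The share of all counts taken by the 10 genes lay between 17.5% and 27.7% in single libraries, with a median of 20.9%. Shares are given without a test, as they sum the listed genes. Untreated PATU8988S had the highest group mean, 26.7% ± 1.10 (SD, n = 3), and HPAFII had 21.6% ± 2.50. Untreated KP4, PANC1 and PK45H had 21.1% ± 0.908, 22.4% ± 0.530 and 21.5% ± 1.39. With mCherry the share was 19.5% ± 0.345 in KP4 and 19.5% ± 1.53 in PANC1, and PK45H had 18.1% ± 0.858. In each of these 3 lines all 3 mCherry libraries lay below all 3 untreated ones. Over all 15 mitochondrially encoded rows this held in PK45H only: mCherry and untreated libraries overlapped in KP4 (25.5% to 26.4% against 25.8% to 27.7%) and in PANC1 (25.9% to 30.2% against 28.2% to 29.6%). The log2 ratio of the PANC1 means was -0.20 for the 10 genes and -0.0516 for the 15 rows. With mCherry and M2rtTA the means of KP4, PANC1 and PK45H were 20.9%, 20.8% and 19.9%, and the libraries overlapped those with mCherry alone in each line.

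The OVOL2 groups of PANC1 went the other way. Their shares were 23.7% ± 0.380 without M2rtTA and 25.8% ± 0.547 with it, and every one of these 6 libraries lay above every PANC1 mCherry and untreated library, over the 10 genes and over all 15 rows alike. In KP4 the means were 20.3% and 21.8%, and in PK45H 18.9% and 19.9%. The share of OVOL2 libraries exceeded that of every mCherry library in KP4 without M2rtTA, by 0.829 percentage points between the means (not over all 15 rows, where 26.366% lay under 26.427%), and overlapped it in KP4 with M2rtTA and in PK45H in both settings. Because a share depends on what else is in the library, a lower share cannot be told apart from more RNA of other genes, and fewer cells cannot be told apart from less RNA per cell.

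**Figure D1:**
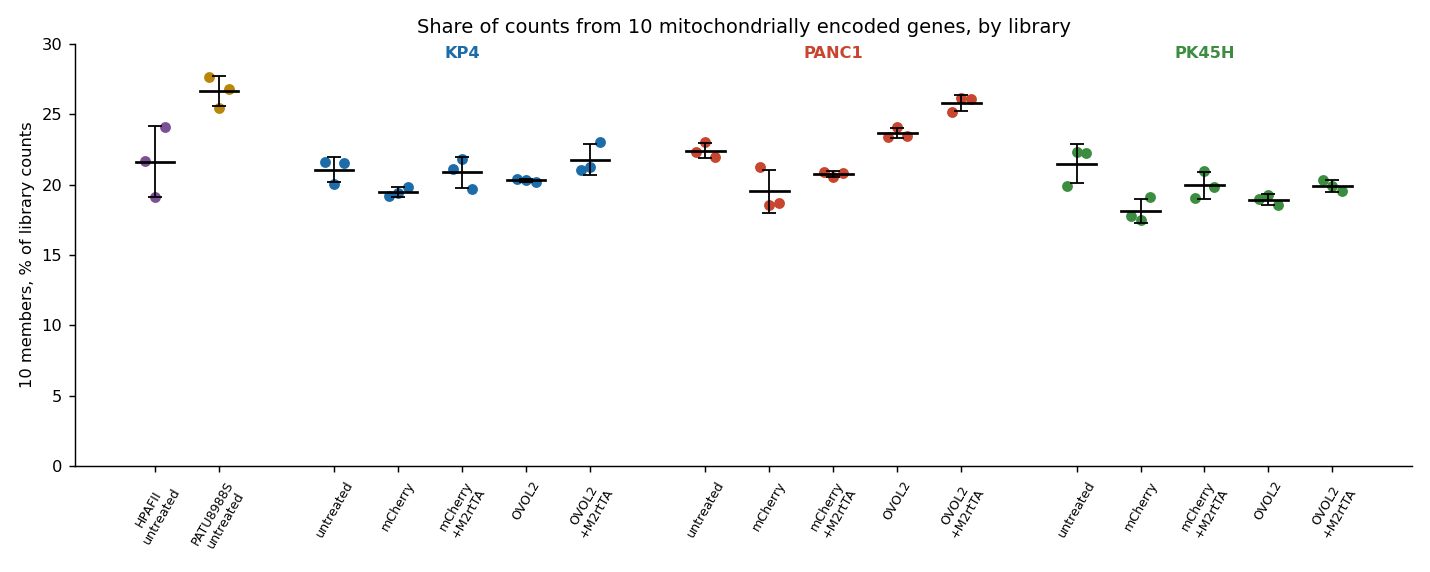
The vertical axis is the summed count of the 10 genes as a percentage of the library's total, and each point is 1 library of the group named below it (line: mean, bar: SD, 3 libraries). PATU8988S and the PANC1 groups with OVOL2 are highest, and the mCherry group is below the untreated group in KP4, PANC1 and PK45H.

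Untreated lines were compared first, since they show the range of levels in cells labelled untreated. A fit of the 15 untreated libraries found a difference between lines for 8 of the 10 genes (edgeR quasi-likelihood, adjusted p under 0.05), against 57.8% of all genes tested. ND2 and ND3 did not pass. COX1, the catalytic core of complex IV, had 8805, 8714 and 9086 CPM in PATU8988S, 7577, 7792 and 8115 in HPAFII, and 4573, 4359 and 4366 in PANC1. The PANC1 libraries lay below all others, at a log2 fold change of -0.98 (SE 0.10, adjusted p = 2.64e-06) against PATU8988S. COX2, the subunit that receives electrons from cytochrome c, had 35726, 40435 and 40452 CPM in PATU8988S and 20206 to 21112 in HPAFII. In the 3 transduced lines untreated COX2 was at most 27149 CPM. ND5, a proton-pumping subunit of complex I, was lowest in KP4, at 2650, 2589 and 2757 CPM, and reached 3986, 3832 and 3905 in PANC1 (log2 fold change 0.59, SE 0.11, adjusted p = 0.00142).

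PATU8988S was the highest line for all 10 genes by group mean, and for 9 without HPAFII replicate 2, when the mean of ND2 was 52717 CPM in HPAFII and 52174 in PATU8988S. For ND2 the HPAFII libraries had 36457, 34777 and 68977 CPM, with replicate 2 near replicate 1 and replicate 3 highest. PATU8988S had 68614, 38380 and 49529, so the order for ND2 rests on widely spread libraries. PATU8988S exceeded HPAFII in 5 genes, where 11% of all genes tested were called in this direction. KP4 had 7 lower genes, PANC1 6 and PK45H 8, beside 17%, 14.8% and 13.8% of all genes tested. None was higher in the other lines. Among the 4 other lines fewer genes differed. HPAFII differed from KP4, PANC1 and PK45H in 3 of 10 genes each, near the share of all genes (29.9%, 28.7% and 25.2%). COX1 and ND6 were lower than in HPAFII in all 3, ND5 was lower in KP4 and PK45H, and COX2 was higher in PANC1. Of these calls, ND6 in KP4 was lost without 1 of 5 of the 6 libraries (adjusted p up to 0.198), ND5 in PK45H without 1 of 4 (up to 0.125) and COX1 in PK45H without PK45H replicate 2 or 3 or HPAFII replicate 3 (up to 0.105). With only PK45H and HPAFII in the fit none of the 3 PK45H calls passed, and with only PANC1 and HPAFII COX2 did not (adjusted p = 0.187). Between PANC1 and KP4, ND5 was higher and ND6 lower in PANC1, 2 of 10 and near the 21.9% of all genes that differed. The call of ND6 was lost without 1 of 4 of the 6 libraries (adjusted p up to 0.127). PK45H had more COX1 and less ND5 than PANC1, again 2 of 10, not above the 25.6% of all genes. Here ND5 was lost without 1 of 5 of the 6 (up to 0.150). Between PK45H and KP4 edgeR called 0 of 10, with 3 at an unadjusted p under 0.05 and 1 called by DESeq2, where 23.5% of all genes differed. Without HPAFII replicate 2, the genes that differed from HPAFII numbered 3 in PANC1 and 4 each in PATU8988S, KP4 and PK45H, and 9 of 10 differed somewhere among the lines. The shares of all genes called in these refits are not given, so the counts show only how the calls depend on this library. With all 15 libraries 57.8% of all genes differed among the lines.

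**Figure D2:**
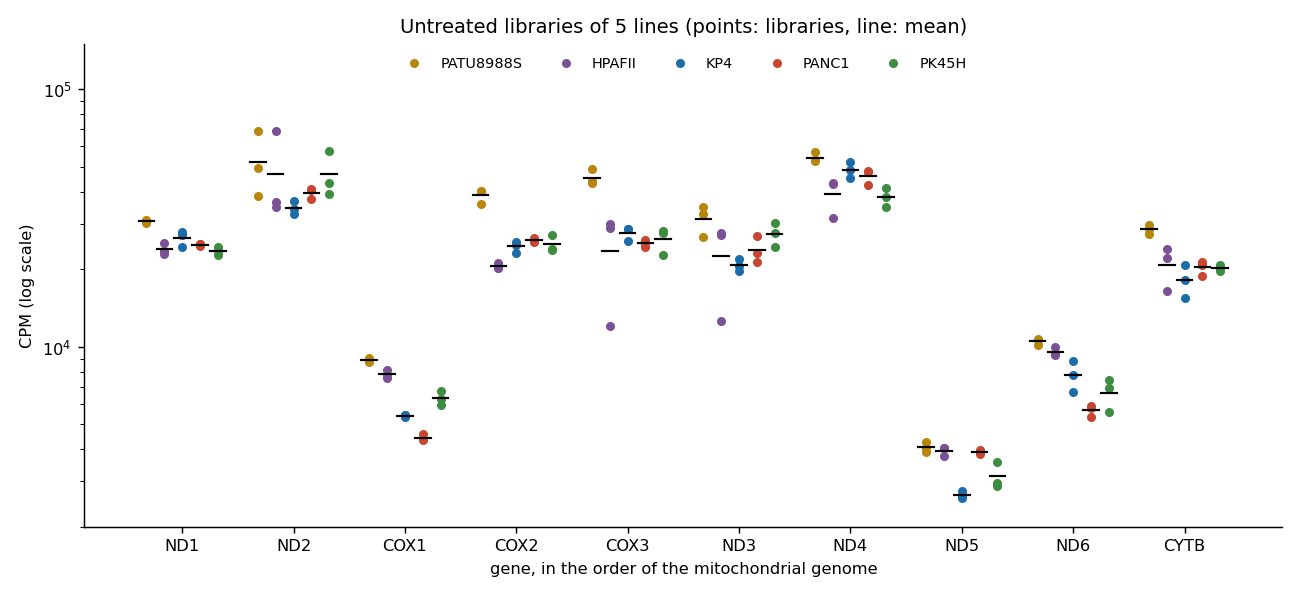
The vertical axis is CPM on a log scale and the horizontal axis the 10 genes in genome order, with 1 point per untreated library and a short line at each group mean. PATU8988S has the highest mean for every gene. For ND2 the HPAFII libraries run from 34777 to 68977 CPM, and without replicate 2 the HPAFII mean is the higher one. For COX3 and ND3 1 HPAFII library lies far below its mates, at 12003 and 12550 CPM.

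The comparison of mCherry with untreated cells asks what transduction and the drugs did without OVOL2. In PANC1, ND4, COX2 and COX3 fell, while the ribosomal RNAs and ND4L rose. ND4, a proton-pumping subunit of complex I, had 48010, 47689 and 42445 CPM in untreated libraries and 28327, 24175 and 27477 with mCherry. All mCherry libraries lay far below all untreated ones, and ND4 fell by 0.77 on the log2 scale (SE 0.08, adjusted p = 0.000362). COX2 had 25770, 26422 and 25494 CPM untreated and 17243, 17126 and 15851 with mCherry. It fell by 0.61 (SE 0.07, adjusted p = 0.000768), again with no overlap. COX3, the third core subunit of complex IV, had 26093, 24308 and 25389 CPM untreated and 17066, 15744 and 18265 with mCherry. It fell by 0.55 (SE 0.11, adjusted p = 0.0440), and this call was lost without any 1 of the 6 libraries, with adjusted p up to 0.193. The 3 called of 10 stand beside 0.598% of all genes called in this comparison, 0.325% in this direction.

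The remaining genes of PANC1 did not follow these 3. ND2 and ND5 were higher in all mCherry libraries than in all untreated ones without passing the test, ND5 at 6066, 4979 and 4552 CPM against 3986, 3832 and 3905 (log2 fold change 0.43, adjusted p = 0.167). ND4 therefore made up 20.9% ± 0.865 of the counts of the 10 genes in untreated PANC1 and 13.995% ± 0.952 with mCherry, while ND2 went from 18.1% ± 1.21 to 25.2% ± 1.53. ND4L, the small complex I subunit whose reading frame precedes ND4 on the same mRNA, had 1166, 1219 and 1204 CPM untreated and 2194, 1662 and 1635 with mCherry. It rose by 0.63 (SE 0.12, adjusted p = 0.0352) where ND4 fell. RNR1, the small ribosomal RNA, had 3241, 2961 and 2908 CPM untreated and 7656, 5122 and 10381 with mCherry, and rose by 1.36 (SE 0.18, adjusted p = 0.00279). RNR2, the large ribosomal RNA, rose by 0.62 (SE 0.10, adjusted p = 0.00962). The call of ND4L was lost without 1 of 5 of the 6 libraries (adjusted p up to 0.171) and that of RNR2 without mCherry replicate 1 or untreated replicate 1 or 3 (up to 0.0897). That of RNR1 held without any 1 library. With only untreated and mCherry PANC1 in the fit, COX2, COX3, ND4L, RNR1 and RNR2 lost their calls. The adjusted p was then 0.0602 for COX2, 0.101 for RNR1 and 0.0958 for RNR2. ND4 kept its call in all 9 other settings of the fit (up to 0.0433).

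The mCherry group with M2rtTA, set against the same untreated libraries, gave the same 3 falls. In it ND4 had 31771, 28379 and 28435 CPM and fell by 0.63 (SE 0.08, adjusted p = 0.00167). COX2 fell by 0.59 and COX3 by 0.56, with 0.454% of all genes called and 0.265% called lower. ND4L, RNR1 and RNR2 rose by 0.64, 1.02 and 0.51. Of these 6 calls those of ND4 and COX2 held without any 1 library, and the others reached adjusted p of 0.218 for COX3, 0.168 for ND4L, 0.0955 for RNR1 and 0.203 for RNR2. The 2 comparisons share the untreated libraries, so they do not count as independent. NEAT1, a nuclear-retained RNA included as a sign of how RNA was recovered, moved with the mCherry comparison too: its mean log2 fold change over the 3 lines was -0.58 (SE 0.14, adjusted p = 0.0408). The other nuclear-retained RNA counted, MALAT1, gave 0.49 (SE 0.42, adjusted p = 0.797). Their part in the result was not tested. PANC1 mCherry libraries had totals of 4242752 to 7490556 counts against 3367089 to 4431189 in untreated ones.

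In KP4 and PK45H edgeR called 0 of 10 genes for mCherry against untreated, with 2 and 6 at an unadjusted p under 0.05 and 0 by DESeq2 in both. Few genes of any kind passed there: 0% of those tested in KP4 and 0.00736% in PK45H. ND4 had 48584, 45314 and 52231 CPM in untreated KP4 and 45690, 41434 and 41226 with mCherry, a log2 fold change of -0.18 (SE 0.08, adjusted p = 0.702). In PK45H its log2 fold change was -0.17 (SE 0.07, adjusted p = 0.553). All 10 genes had a negative log2 fold change in PK45H and 9 of 10 in KP4, with medians of -0.20 and -0.15. The median of all genes tested was 0.00 in both. With M2rtTA, mCherry against untreated likewise gave 0 of 10 in KP4 and PK45H by edgeR, with 0 and 3 at an unadjusted p under 0.05, 0 by DESeq2, and 0% and 0.0294% of all genes called. The effect of mCherry differed between the 3 lines for ND4 (adjusted p = 0.00458), COX2 (adjusted p = 0.0155) and RNR1 (adjusted p = 0.000474), where 0.355% of all genes differed.

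**Figure D3:**
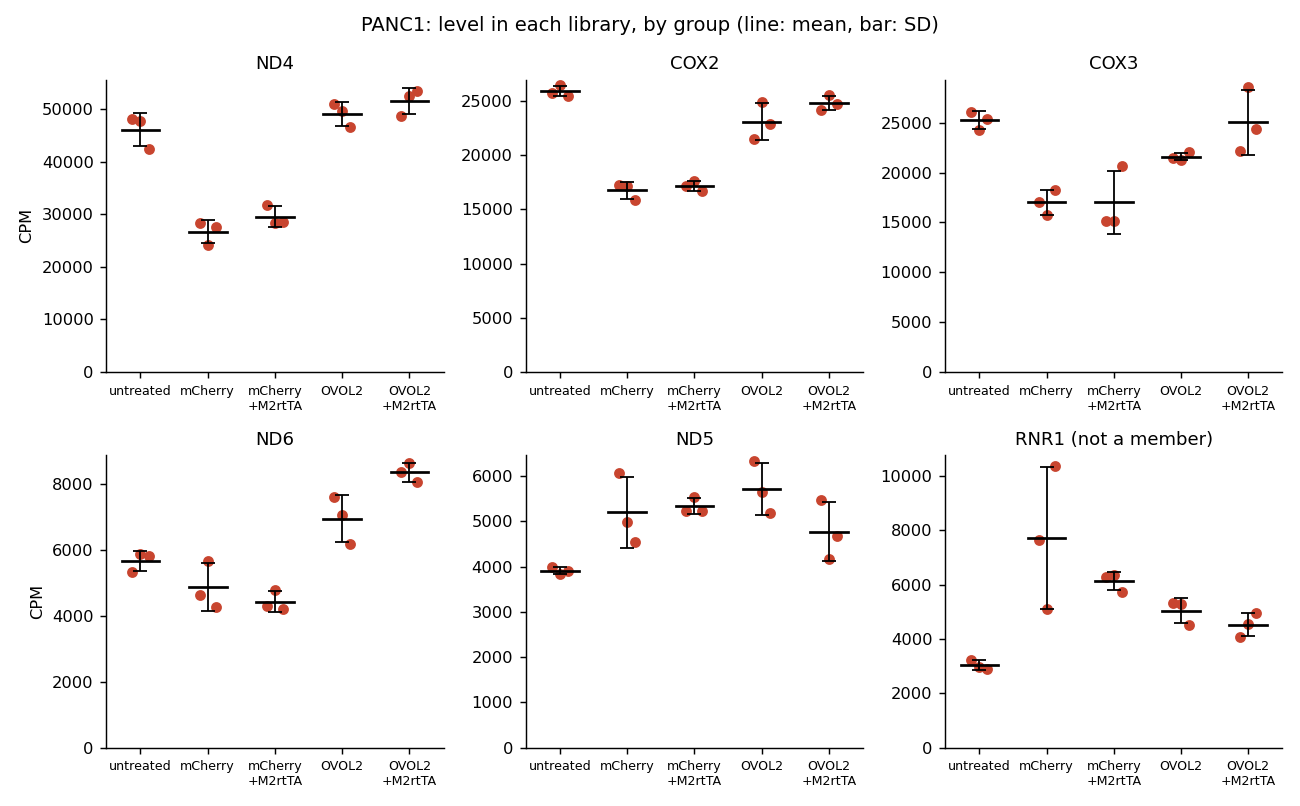
Each panel plots 1 gene in PANC1, with the level in CPM on the vertical axis from 0 and 1 point per library of the 5 groups (line: mean, bar: SD). ND4, COX2 and COX3 are low in both mCherry groups, ND6 is highest with OVOL2 and M2rtTA, and RNR1 is lowest in untreated cells.

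M2rtTA without OVOL2, compared between the mCherry groups with and without it, gave 0 called genes of 10 in each line by edgeR and by DESeq2. In this comparison M2rtTA cannot be told apart from the lentivirus that delivered it. At an unadjusted p under 0.05 KP4 had 3, PANC1 and PK45H 1 each. Of all genes tested 0%, 0% and 0.0294% were called. The log2 fold changes of the 10 genes spanned -0.04 to 0.37 (KP4), -0.14 to 0.20 (PANC1) and -0.09 to 0.46 (PK45H). All 10 were above 0 for the mean over the 3 lines, with a median of 0.08, and none passed by edgeR or DESeq2 (4 at an unadjusted p under 0.05), where 0.0602% of all genes did.

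OVOL2 was compared with mCherry to ask what the factor changed beyond transduction. PANC1 showed the most. Without M2rtTA, 4 of 10 genes rose and none fell, beside 5.08% of all genes called, 2.12% in this direction. ND4 had 50901, 49654 and 46514 CPM with OVOL2 against the 24175 to 28327 of the mCherry libraries, and rose by 0.89 (SE 0.08, adjusted p = 1.76e-05). COX2 had 21472, 24907 and 22866 CPM and rose by 0.48 (SE 0.07, adjusted p = 0.00138). ND6 had 7615, 7050 and 6182 CPM against 4635, 5672 and 4275, and rose by 0.53 (SE 0.11, adjusted p = 0.0155). CYTB, the catalytic cytochrome of complex III, had 23788, 25615 and 25763 CPM against 21321, 17352 and 18884, and rose by 0.40 (SE 0.09, adjusted p = 0.0169). For all 4 genes the groups did not overlap, which describes the same values that were tested. The share of all genes without overlap is not given. The call of ND6 was lost without mCherry replicate 1 or 3 or OVOL2 replicate 1 (adjusted p up to 0.0627). That of CYTB was lost without mCherry replicate 2 or 3 or OVOL2 replicate 2 or 3 (up to 0.0669). This comparison uses the mCherry libraries in which ND4, COX2 and COX3 were low.

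With M2rtTA, from libraries that share none with the previous contrast, 5 of 10 genes rose in PANC1 and none fell, beside 13.9% of all genes called, 5.76% in this direction. ND4 had 48734, 52508 and 53449 CPM with OVOL2 and M2rtTA against 31771, 28379 and 28435 with mCherry and M2rtTA. It rose by 0.84 (SE 0.08, adjusted p = 1.14e-05). ND6 had 8371, 8622 and 8048 CPM against 4302, 4792 and 4198, and rose by 0.95 (SE 0.11, adjusted p = 8.13e-05). COX2 had 24193, 25528 and 24728 CPM against 17117, 17578 and 16691, and rose by 0.57 (SE 0.07, adjusted p = 0.000113). COX3 rose by 0.59 (SE 0.11, adjusted p = 0.00298) and ND1, the complex I subunit next to the quinone site, by 0.38 (SE 0.08, adjusted p = 0.00539). All 5 stayed called without any 1 library. None of the 5 overlapped between groups, again a description of the tested values without the share of all genes beside it. ND5, which abuts ND6, gave 5467, 4172 and 4676 CPM against 5236, 5546 and 5238, a log2 fold change of -0.13 (adjusted p = 0.537). ATP6, of the ATP synthase, rose in both settings, by 0.47 and 0.28, the second lost without mCherry with M2rtTA replicate 3 or OVOL2 with M2rtTA replicate 2 (adjusted p up to 0.0614). RNR1 gave -0.60 and -0.40 without passing (adjusted p = 0.0743 and 0.168).

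Set directly against untreated PANC1, few of the genes called against mCherry were called again: CYTB of the 4 without M2rtTA, and ND1 and ND6 of the 5 with it. ND4 was at 46514 to 50901 CPM with OVOL2 alone, overlapping the 42445 to 48010 of untreated cells, and at 48734 to 53449 with M2rtTA, above all of them, and neither ND4 nor COX2 nor COX3 was called in either OVOL2 group. COX2 and COX3 were lower in all libraries with OVOL2 alone than in all untreated ones without passing the test. ND1, ND5 and CYTB rose with OVOL2 alone, by 0.28, 0.58 and 0.33, beside 10.6% of all genes called and 4.29% called higher. ND1, ND2, ND3 and ND6 rose with OVOL2 and M2rtTA, by 0.55, 0.41, 0.30 and 0.60, beside 16.7% and 6.79%. The calls of ND1 and CYTB with OVOL2 alone, and of ND3 with M2rtTA, were lost without 1 of 4 or 5 of their 6 libraries (adjusted p up to 0.138, 0.0911 and 0.150). RNR1, RNR2 and ATP6 rose in both, RNR1 by 0.76 and 0.62, where leaving out 1 library gave adjusted p up to 0.0510 and 0.0935. Every transduced PANC1 group thus had more of both ribosomal RNAs than untreated cells, while ND4 and COX2 were called lower than in untreated cells in the mCherry groups and in neither OVOL2 group. These comparisons share the untreated libraries with those of mCherry, so each is given by its own values.

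In KP4 the changes were smaller and in both directions. Without M2rtTA edgeR called 0 of 10 genes, 2 had an unadjusted p under 0.05 and DESeq2 called 0, where 6.82% of all genes passed. With M2rtTA 3 of 10 were called, beside 22.4% of all genes, 9.91% higher and 12.5% lower. COX1 had 6927, 5941 and 6178 CPM with OVOL2 against 5217, 4974 and 4146 and rose by 0.42 (SE 0.10, adjusted p = 0.00611). COX2 had 21734, 20603 and 21026 CPM against 29011, 25584 and 21571, with 1 library overlapping, and fell by 0.26 (SE 0.08, adjusted p = 0.0394). COX3 had 22185, 24230 and 25162 CPM against 35266, 30742 and 27140 and fell by 0.37 (SE 0.10, adjusted p = 0.0129). The call of COX2 was lost without 1 of 5 of the 6 libraries (adjusted p up to 0.266) and that of COX3 without mCherry with M2rtTA replicate 1 (0.0910). In other settings of the fit the fall of COX2 was lost in 6 of 9 (adjusted p up to 0.189), that of COX3 in 2 (up to 0.146) and the rise of COX1 in 1 (0.0586), so that only COX1 kept its call in most settings and without any 1 library. ND4 gave 39425, 39516 and 45178 CPM against 46162, 46854 and 38372, overlapping, with a log2 fold change of -0.07 (adjusted p = 0.558). Against untreated KP4 edgeR called 0 of 10 with OVOL2 alone and 0 of 10 with M2rtTA, where 7.39% and 24.7% of all genes passed. At an unadjusted p under 0.05 there were 2 and 3 genes, and DESeq2 called 0 in both. Both ribosomal RNAs rose there with OVOL2 and M2rtTA, RNR2 by 0.49 (SE 0.11, adjusted p = 0.00624) and RNR1 by 0.53 (adjusted p = 0.0171, up to 0.0924 without OVOL2 with M2rtTA replicate 3 or untreated replicate 1 or 2).

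In PK45H the complex I gene ND5 led. Without M2rtTA it had 3941, 4171 and 4424 CPM with OVOL2 against 2594, 2438 and 3082 with mCherry. It rose by 0.60 (SE 0.11, adjusted p = 0.00496) and was the 1 gene of 10 called, beside 8.39% of all genes and 3.58% called higher. With M2rtTA it had 3165, 3608 and 3973 CPM against 2822, 2659 and 2558 and rose by 0.43 (SE 0.11, adjusted p = 0.0219). COX1 rose as well, by 0.34 (SE 0.11, adjusted p = 0.0496), so that 2 of 10 were called beside 15.9% of all genes and 7.45% called higher. Both of these calls were lost without 1 of 4 of the 6 libraries, with adjusted p up to 0.0813 and 0.177. RNR1 rose in both settings, by 0.40 (lost without 1 of 4 libraries, adjusted p up to 0.146) and 0.54. Against untreated PK45H, OVOL2 alone had less ND1, ND2 and ND3 (log2 fold changes -0.30, -0.56 and -0.46) and more ND5 (0.40), beside 12% of all genes. Of these, ND3 stayed called without any 1 library, and the others reached adjusted p of 0.163, 0.175 and 0.122. With M2rtTA only ND3 was called of the 10 (-0.43), beside 19.9%. RNR1 was higher than in untreated PK45H in both, by 0.47 (up to an adjusted p of 0.0626 without OVOL2 replicate 1 or 3) and 0.56, and RNR2 by 0.59 with M2rtTA. Marker sums moved with OVOL2 in this line. The ductal sum was 2584 to 2989 CPM with mCherry and 4340 to 4730 with OVOL2, and 1852 to 1990 against 4644 to 4778 with M2rtTA. The leukocyte sum went from 437 to 591 CPM up to 706 to 831 without M2rtTA, and the acinar and endocrine sum from 0 to 0.777 up to 6.15 to 7.25. Their part in the rise of ND5 was not tested.

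**Figure D4:**
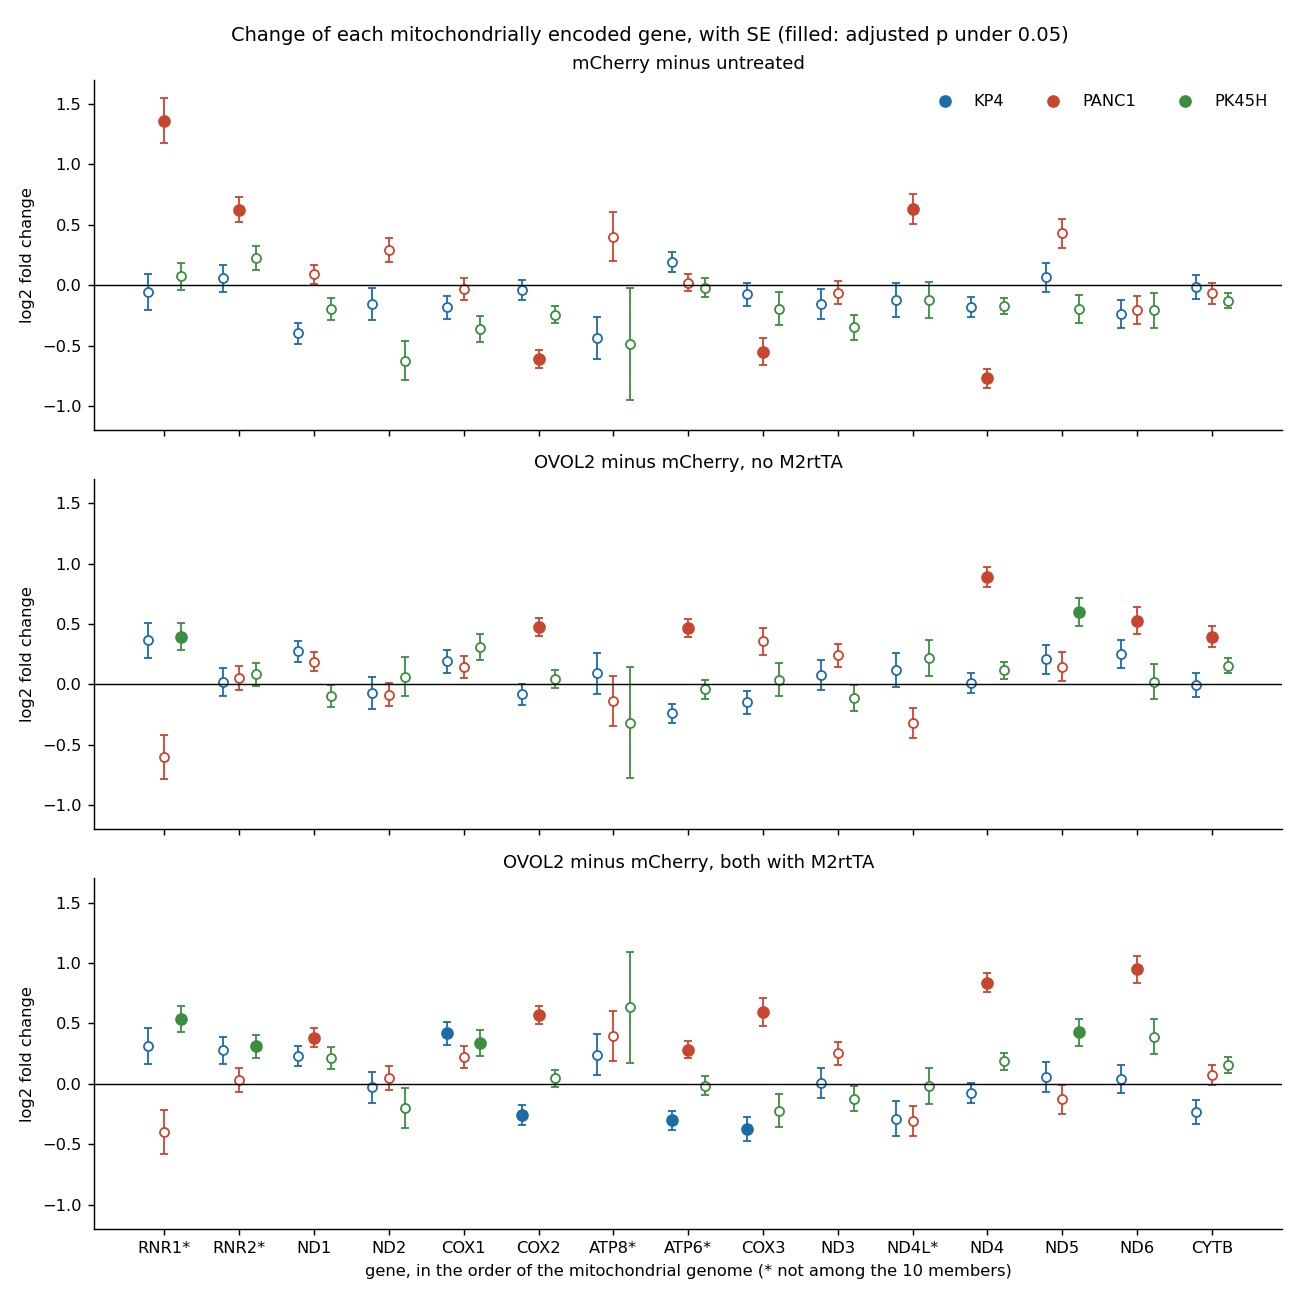
Each panel plots 1 comparison, with the log2 fold change (bars: SE) on the vertical axis and the 15 mitochondrially encoded genes in genome order, in KP4 (blue), PANC1 (red) and PK45H (green). Filled points have an adjusted p under 0.05, and the PANC1 points of ND4, COX2 and COX3 lie below 0 in the top panel and above 0 in the lower panels.

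Averaged over the 3 lines, 7 of 10 genes rose with OVOL2 without M2rtTA and none fell, beside 18.1% of all genes called and 9.32% called higher. ND4 rose by 0.36, ND5 by 0.34, ND6 by 0.29, COX1 by 0.23, CYTB by 0.20, COX2 by 0.16 and ND1 by 0.14. The rise of ND1 (adjusted p = 0.0480) was lost in 8 of 9 other settings of the fit, with adjusted p up to 0.0957, and without 1 of 15 of its 18 libraries (up to 0.157). The other 6 rises held without any 1 library. With M2rtTA 5 of 10 rose, beside 32.9% of all genes called and 15.7% called higher: ND6 by 0.46, COX1 by 0.32, ND4 by 0.31, ND1 by 0.27 and COX2 by 0.12. The rise of COX2 was lost in 4 of 9 other settings (adjusted p up to 0.1001) and without 1 of 9 of its 18 libraries (up to 0.107). Of the other mitochondrially encoded rows, ND4L gave -0.208 and RNR2 0.205 in this contrast, both called. Leaving out 1 library gave edgeR adjusted p up to 0.1235 for ND4L and 0.03875 for RNR2. The median over the 10 genes was 0.18 without and 0.12 with M2rtTA, and that over all genes tested 0.00 and 0.03. For mCherry against untreated the mean over lines called 2 of 10, ND4 at -0.38 and COX2 at -0.31, beside 0.489% of all genes, 0.194% lower, and RNR1 and RNR2 rose by 0.45 and 0.30, the latter lost without 1 of 5 of the 18 libraries (adjusted p up to 0.0631).

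These means cover lines that differed. The OVOL2 effect without M2rtTA differed between lines for ND4 (adjusted p = 6.55e-06; log2 fold changes of 0.01, 0.89 and 0.12 in the order KP4, PANC1, PK45H) and COX2 (adjusted p = 0.00251), 2 of 10 beside 2.74% of all genes. With M2rtTA it differed for ND4 (adjusted p = 1.53e-06), COX2 (adjusted p = 5.64e-06), COX3 (adjusted p = 0.000821) and ND6 (adjusted p = 0.00241), 4 of 10 beside 7.56%. COX1 and ND1 passed for the mean and not for the difference. COX1 had positive log2 fold changes in each line and setting, 0.19, 0.15 and 0.31 without M2rtTA and 0.42, 0.22 and 0.34 with it in KP4, PANC1 and PK45H. M2rtTA itself changed the OVOL2 effect for 0 of 10 genes by edgeR in each line, with 0, 2 and 1 at an unadjusted p under 0.05 in KP4, PANC1 and PK45H and 0 by DESeq2. Of all genes 1.43%, 0.136% and 1.6% were called there. For the mean over lines it was again 0 of 10 by both tools, with 2 at an unadjusted p under 0.05 and 7.72% of all genes called.

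The respiratory chain needs nuclear-encoded partners, and these were counted from lists of 37 subunits of complex I, 9 of complex III, 11 of complex IV and 15 of complex V. With OVOL2 and M2rtTA, averaged over lines, 26 of these 72 genes fell and 6 rose, where 17.3% of all genes fell and 15.7% rose. In complex I 15 fell and 4 rose, and in complex V 7 fell and none rose. NDUFB10, an accessory subunit of the complex I membrane arm, fell by 1.40 (SE 0.09, adjusted p = 3.91e-14), NDUFA1 by 1.19 and NDUFS8, which carries iron-sulfur clusters, by 0.73. NDUFA3 and NDUFB8 rose by 0.41 and 0.39. UQCRC1 of complex III fell by 0.68 and UQCR11 rose by 0.47, COX6A1 of complex IV rose by 0.23, and ATP5MC2, which encodes the rotor ring of ATP synthase, fell by 0.69. Without M2rtTA 9 of the 72 fell and 3 rose, where 8.81% of all genes fell and 9.32% rose, so that the share called was near that of all genes. The median log2 fold change of the 72 was -0.12 with and -0.06 without M2rtTA. That of the 10 mitochondrially encoded genes was 0.12 with and 0.18 without it, and 7 and 9 of the 10 were above 0. For mCherry against untreated edgeR called 0 of the 72, with 4 at an unadjusted p under 0.05, and for M2rtTA likewise 0 and 4.

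Genes that make and handle mitochondrial RNA were counted in the same contrast, with OVOL2 and M2rtTA (17.3% of all genes lower). Of 17 genes of mitochondrial transcription and genome maintenance 7 fell and none rose, among them MTERF3, a repressor of mitochondrial transcription, by 1.14 (SE 0.13, adjusted p = 1.28e-08), MTERF2 by 0.98 and MRPL12 by 0.44. Of 25 genes of mitochondrial RNA processing and stability 8 fell and none rose, with SLIRP, the partner of LRPPRC in stabilising mRNAs, at -0.64 (SE 0.15, adjusted p = 0.00120), the tRNA 3′ processing enzyme ELAC2 at -0.44 and PRORP, the 5′ processing nuclease, at -0.36. Of 12 chaperones and proteases 4 fell and 2 rose, and HSPD1, the matrix chaperonin, fell by 1.21 (SE 0.09, adjusted p = 4.34e-13). Of 9 nuclear regulators of mitochondrial biogenesis 1, the coactivator PPARGC1B, fell without M2rtTA, by 0.69. Falls were common in other lists: 13 of 31 cytosolic large ribosomal proteins fell and none rose. Without M2rtTA fewer genes of these lists passed, and FASTKD2 and LRPPRC, both RNA-binding proteins of the matrix, rose by 0.35 and 0.27. The nuclear-retained NEAT1 rose by 0.58 without and 0.96 with M2rtTA, and its association with the mitochondrial transcripts was not computed. MALAT1 gave 0.84 and 0.53 (adjusted p = 0.181 and 0.361). Their part in the result was not tested.

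Across the 17 group means the 10 genes did not move as one block. Of their 45 pairs 40 had a correlation of log2 level above 0, with a median Pearson r of 0.37. COX2 and COX3 were closest (r = 0.92), followed by ND3 and CYTB (0.81), COX2 and ND4 (0.79) and ND4 and ND6 (0.76). ND5 and ND6, which abut on opposite strands, had an r of -0.15, and ND4 and ND4L, which share an mRNA, -0.02. RNR1 and RNR2 had 0.79. These are descriptions over group means that share lines, libraries and a common scaling, not tests. The HPAFII mean includes replicate 2, low in ND3 and COX3, and no correlation is given without it.

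Outside the mitochondrial genome, likeness was measured as the Pearson correlation of log2 CPM with the log2 of the summed level of the 10 genes over the same 17 means, among 5420 genes with a mean of at least 20 CPM. The highest were LACTB2 (0.79), PRCP (0.78), CLDN7 (0.77), ZNF664 (0.76) and SAR1B (0.75). CLDN7, a claudin of epithelial tight junctions, had 296 CPM in untreated PATU8988S, 85.8 in PANC1 with OVOL2 and M2rtTA, 16.3 in untreated PANC1 and 2.53 in PK45H with mCherry. The lowest were FAM234B (-0.88), TNFRSF1A (-0.80), NTMT1 (-0.77), ANKRD36 (-0.77) and RND2 (-0.75). FAM234B had 5.76 CPM in untreated PATU8988S and 10.1 in PANC1 with OVOL2 and M2rtTA, and 21.3 to 24.2 in untreated KP4, PANC1 and PK45H. PATU8988S, the line with the highest mitochondrial share, is 1 of the 17 points and lies at the end of both orders.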

How the data were processed

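The authors deposited unnormalised whole-number counts, 1 row per gene symbol, for 51 PLATE-seq libraries made from 100 ng of total RNA each, per the labels. Per the submitters' processing notes kallisto 0.44.0 and GRCh38 were named, without a role for either. Whether the whole numbers are rounded estimates is not stated. Strand, molecular identifiers, filters and how overlapping or repeated sequences were counted are not given in the sources used here. All columns were matched to samples by their description, and 0 stayed unmatched.

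Counts were tested in R 4.3.3 with edgeR 4.0.16 after filterByExpr by group and TMM scaling, with the two-sided quasi-likelihood test. The 15 libraries of a line shared 1 fit, as did the 45 of 3 lines and the 15 untreated ones. Benjamini-Hochberg adjustment ran over all genes tested, and called means an adjusted p under 0.05. The scripts were tested on simulated data. CPM are TMM-scaled over 51 libraries. Annotation and sequences came from GENCODE 29, where all 10 genes matched.

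The 10 genes and the companion lists were chosen with earlier results of these data known. All 10 genes are named whatever their values, with the other mitochondrial rows. From each list up to 3 genes per direction with the smallest p for a mean over lines could be named, and the 5 most and 5 least alike genes. The comparisons of mCherry with M2rtTA and of OVOL2 with untreated cells were chosen after other results were known. Alternatives were RLE scaling, scaling without mitochondrial rows, no filter, a filter at a mean count of 10, DESeq2 1.42.0, the groups compared alone, the 51 libraries in 1 fit, a block for replicate number, robust dispersion, other numerators and denominators of the share, and each library left out.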

Additional observations from a re-analysis of the deposited data

Results flagged for a closer look

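Effects that differed between KP4, PANC1 and PK45H by the test of the difference itself are listed with their adjusted p from edgeR (2 degrees of freedom, 45 libraries). For OVOL2 against mCherry without M2rtTA these were ND4 (6.55e-06), COX2 (0.00251), ATP6 (0.000179) and RNR1 (0.00602). ATP6 rose by 0.47 in PANC1 and RNR1 rose by 0.40 in PK45H, where PANC1 gave -0.60 for RNR1. With M2rtTA they were ND4 (1.53e-06), COX2 (5.64e-06), COX3 (0.000821), ATP6 (0.00131), ND6 (0.00241) and RNR1 (0.0149). COX2, COX3 and ATP6 rose in PANC1 and fell in KP4. For mCherry against untreated they were RNR1 (0.000474), ND4 (0.00458) and COX2 (0.0155), with PANC1 at 1.36, -0.77 and -0.61.

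In the libraries set against each other for the PANC1 differences, the ductal marker sum was 2201 to 2640 CPM with mCherry, 2974 to 3342 in untreated cells and 2321 to 2606 with OVOL2, and its part in the result was not tested. For PK45H and KP4 it was 4340 to 4730 and 1057 to 1208 CPM with OVOL2, against 2584 to 2989 and 760 to 811 with mCherry. Groups of 3 are too small for a test of single outlying libraries, and none was made.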

How the results depend on the processing

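Of the counts of called genes under other settings of the fit, 355 stayed within 1.5 times the main count and 35 did not. The groups compared alone, with fewer libraries to estimate the spread, gave 0 for KP4 OVOL2 with M2rtTA, 2 for PANC1 OVOL2, 1 for PANC1 mCherry against untreated, 1 for PANC1 OVOL2 against untreated, and 0 for PK45H OVOL2 with M2rtTA against both mCherry and untreated. It gave 0 for the difference between lines in mCherry, 1 for the change of the OVOL2 effect over lines, and 1, 0, 1 and 1 for PATU8988S against HPAFII, PK45H against HPAFII, PK45H against KP4 and PK45H against PANC1. A single fit of all 51 libraries gave 1 for mCherry in KP4 and in PK45H, 1 for mCherry with M2rtTA in PK45H, 1 for KP4 OVOL2 with M2rtTA, 2 for PANC1 OVOL2 with M2rtTA and 2 for PK45H OVOL2, each against untreated, 2 for PK45H OVOL2 against mCherry, and 1 for PK45H against KP4. Robust dispersion gave 1 for KP4 OVOL2, 2 for KP4 OVOL2 with M2rtTA against untreated, 1 for the change of the OVOL2 effect over lines and 2 for PK45H against KP4. No filter gave 0 for PK45H OVOL2 with M2rtTA, 2 for either PK45H OVOL2 group against untreated, and 1 for PK45H against PANC1. DESeq2 gave 4 for mCherry over lines and 1 for PK45H against KP4, as did RLE scaling and scaling without mitochondrial rows for the last. The cause of these changes was not tested for any setting. For none of these refits is the share of all genes called given. The counts therefore show only how the calls depend on the setting, not whether the listed genes changed more than others. PANC1 OVOL2 with M2rtTA kept a count of 5 in every setting and without any 1 library.

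Replicate numbers did not pair libraries. Deviations of same-numbered libraries had a median correlation of -0.00502 (KP4), 0.0140 (PANC1) and -0.00267 (PK45H), and 4, 8 and 2 of 15 libraries correlated best with their own number. With the replicate number as a block, the counts became 1 for PK45H OVOL2 with M2rtTA, 1 for PK45H OVOL2 against untreated and 1 for PK45H against PANC1. Here too the share of all genes called is not given.

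Of 130 called values of single genes, 0 reversed in 1170 refits, 111 of which lost the call, and 81 values kept it in every setting. Called values also kept their direction without any 1 library, and ND4 in KP4 with OVOL2 and no M2rtTA, not called, ran from -0.0114 to 0.0374 on the log2 scale without 1 library.

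Counting all 15 mitochondrial rows gave shares of 30.5% in HPAFII, 36.0% in PATU8988S, 27.0%, 25.8%, 27.4%, 26.5% and 29.04% in KP4 (untreated, mCherry, mCherry with M2rtTA, OVOL2, OVOL2 with M2rtTA), 28.7%, 27.7%, 28.7%, 32.4% and 34.2% in PANC1, and 28.95%, 25.9%, 27.9%, 26.7% and 28.8% in PK45H. The log2 ratio of the share then was -0.0516 in place of -0.20 for PANC1 mCherry against untreated and 0.25 in place of 0.31 for OVOL2 with M2rtTA. Without genes that spiked in 1 library, the shares were 24.1% in PANC1 OVOL2 and 21.0% in PANC1 mCherry with M2rtTA.

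Leaving out 1 library at a time gave counts of 1 to 3 for KP4 OVOL2 with M2rtTA and 0 to 2 for it against untreated, 2 to 3 for PANC1 OVOL2 and 1 to 2 for it against untreated, 1 to 2 for PK45H OVOL2 and 1 to 3 for it against untreated, and 0 to 2 for PK45H OVOL2 with M2rtTA and 1 to 2 for it against untreated. For the change of the OVOL2 effect over lines it gave 0 to 1. Between untreated lines it gave 3 to 5 for PATU8988S against HPAFII and 1 to 4 for PK45H against HPAFII. Against PATU8988S it gave 4 to 7 for KP4, 4 to 5 for PANC1 and 6 to 8 for PK45H. For PANC1 against KP4 and for PK45H against PANC1 it gave 1 to 2. No share of all genes called stands beside these ranges, so they show only how the calls depend on single libraries.

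The triplicates of each line limit these results. Levels are relative to all other RNA in a library.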
